A study of Arabidopsis thaliana with 26 samples.

Results

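The genes described here are those whose transcripts stood lower in Arabidopsis thaliana seedlings after both brassinolide and castasterone. They were chosen by D, the mean log2(intensity + 5) of a treatment minus the mean of the 4 mock and campestanol arrays. A probe set, the group of short oligonucleotides that measures a transcript on the array, was a member when its mean over the 26 arrays was at least 20 and D was at most -0.8 for brassinolide and for castasterone alike. The threshold was met by 116 probe sets, 9 of them were left out by name, and 107 of the 22810 on the array remained. Of these, 39 name exactly 1 gene and 68 name none in the platform table, so the latter are given by probe set identifier. Apart from that mean, the values that chose the members are brassinolide and castasterone against mock and campestanol. Those differences are given as a description with no test.

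Whole 7-day-old seedlings, labelled de-etiolated, of the Col background and seed stock N6159, were treated for 3 h and profiled on Affymetrix ATH1 arrays, 2 per group with the letters A and B. No source used here gives the genotype of that stock, and every group shares it. The label de-etiolated is copied as it stands and is read here neither as a growth condition nor as a genotype. There were 13 groups: mock, campestanol (10 µM), brassinolide (10 nM), castasterone (100 nM) and 9 further steroids (1 µM each). Those 9 were 6-deoxocathasterone, cathasterone, 6-deoxoteasterone, teasterone, 3-dehydro-6-deoxoteasterone, 3-dehydroteasterone, 6-deoxotyphasterol, typhasterol and 6-deoxocastasterone. Whether A and B came from separate cultures is not stated in the labels, so the spread behind each p-value may be purely technical.

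Brassinosteroids are plant steroid hormones that drive cell expansion and take part in the choice between growth in the dark and growth in the light. Brassinolide binds the leucine-rich repeat receptor kinase BRI1 at the cell surface; signalling inactivates the kinase BIN2, and the transcription factors BZR1 and BES1 then activate some genes and repress others. The compounds are intermediates of brassinolide synthesis, which runs from campestanol through parallel branches with and without a ketone at C-6. Side-chain hydroxylation at C-22 gives 6-deoxocathasterone and cathasterone, and hydroxylation at C-23 gives the teasterones. The hydroxyl at C-3 is then oxidised to a ketone (the 3-dehydro compounds) and reduced again in the opposite orientation (the typhasterols), and hydroxylation at C-2 gives the castasterones. Whole seedlings were extracted, so fewer cells of a type and less RNA per cell cannot be told apart.

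The deposited intensities had a trimmed mean of 100.0 on every array, and the arrays of a group correlated at 0.948 to 0.975 across probe sets. The label of whole plant was checked against marker lists, of which few genes have a named probe set: 2 of 7 for root, 1 of 7 for green tissue and 0 of 4 for seed. The root genes EXPA7 and AT5G66390 read 106 to 240 and 59.3 to 116 over the 26 arrays. RCA, which encodes the Rubisco activase of green tissue, ran from 15.5 to 1591 and differed between the arrays of a group, for instance 1591 on array A and 15.5 on array B of 3-dehydro-6-deoxoteasterone. Its part in the results was not tested. None of the 10 genes for brassinosteroid synthesis on a fixed list has a named probe set, and of 15 signalling genes only BRL1 does, at a mean of 6.79, too dim to be tested. Among 13 light-development transcription factors, HYH, a bZIP factor, has one. It is no member, with D of -0.23 after brassinolide and -0.51 after castasterone, and limma did not call it in the comparisons between compounds below.

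Across the members, the median D was -1.11 for brassinolide and -1.14 for castasterone, the values the choice fixes. The precursors given at 1 µM had medians from -0.29 to -1.13, and the order followed the route of synthesis only in part. The medians were -0.29 for 6-deoxocathasterone and -0.47 for cathasterone, the compounds hydroxylated at C-22 alone. They were -0.67 for 6-deoxoteasterone and -0.67 for teasterone. The 3-dehydro compounds had -0.75 without and -0.93 with the C-6 ketone. 6-deoxotyphasterol stood out from that order at -0.58, whereas typhasterol had -1.13 and 6-deoxocastasterone -0.96. Typhasterol at 1 µM thus had a median equal to 94.3% of the castasterone value, taken member by member, against 40.6% for cathasterone, and no dose-matched comparison with castasterone or brassinolide exists. All these values share the 4 control arrays with the choice of members, and they are given side by side with no test.

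**Figure D1:**
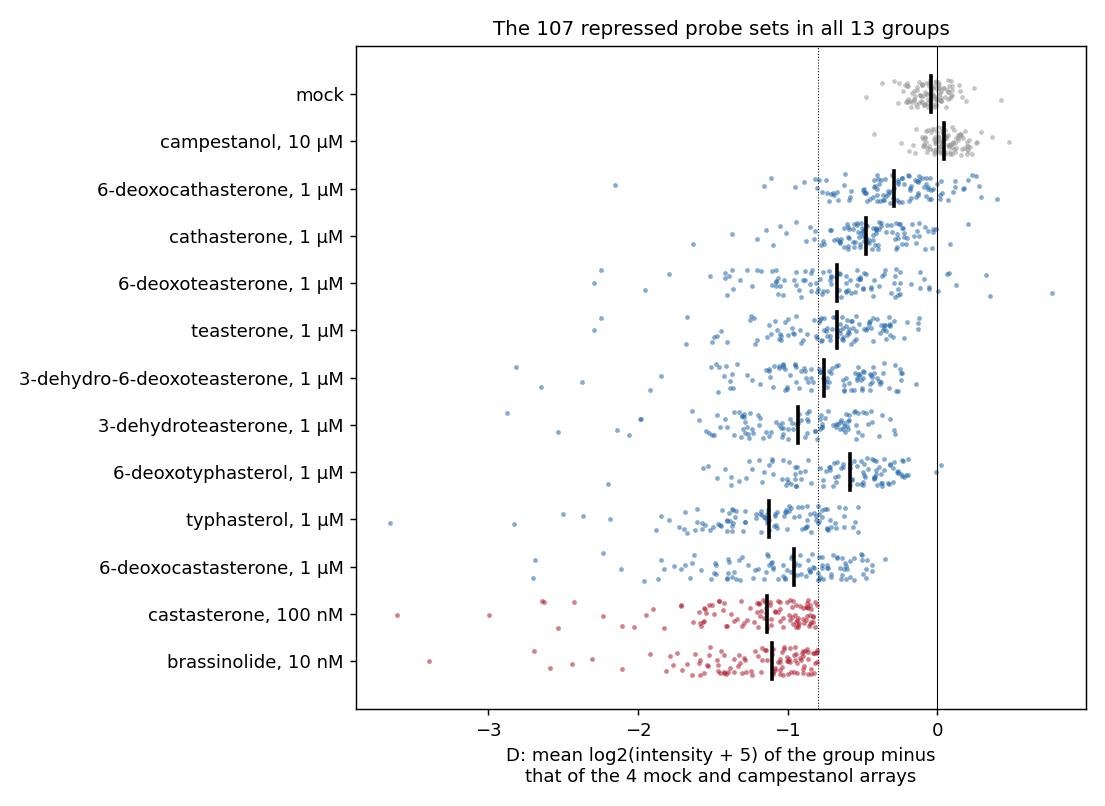
D of each of the 107 members (points) in the 13 groups, in log2 units, with the median as a black bar, a solid line at 0 and a dotted line at the threshold of -0.8; the vertical scatter within a group carries no value. The medians run from -0.29 for 6-deoxocathasterone to -1.13 for typhasterol among the compounds at 1 µM (blue), and lie at -1.11 and -1.14 for brassinolide and castasterone (red), where the rule fixed the right edge.

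D was at most -0.8 for 7 members after 6-deoxocathasterone, 12 after cathasterone, 41 after 6-deoxoteasterone and 37 after teasterone. It was so for 49 after 3-dehydro-6-deoxoteasterone, 65 after 3-dehydroteasterone, 36 after 6-deoxotyphasterol, 67 after 6-deoxocastasterone and 84 after typhasterol. Over all 17606 probe sets tested, D was at most -0.8 for 57 after 6-deoxocathasterone, 88 after cathasterone, 133 after 6-deoxoteasterone and 121 after teasterone. It was so for 153 after 3-dehydro-6-deoxoteasterone, 240 after 3-dehydroteasterone, 144 after 6-deoxotyphasterol, 194 after 6-deoxocastasterone and 261 after typhasterol. No member reached 0.8 in the other direction in any group, which the rule fixes for brassinolide and castasterone. Among the compounds at 1 µM, D was at least 0.8 for 75 of the 17606 probe sets after 6-deoxocathasterone, the fewest. It was so for 486 after 6-deoxocastasterone, the most, so few probe sets reached it in any case and the 0 says little about the members. The lowest of the 9 compounds was typhasterol for 54 members and 6-deoxocastasterone for 21, and cathasterone was the lowest for 0. Typhasterol and 6-deoxocastasterone, which differ at both C-6 and C-2, did not share a ranking: typhasterol was the lower for 70 members and 6-deoxocastasterone for 37, with differences from -0.97 to 0.74, which were not tested. Neither ranking was counted over all probe sets.

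Values on single arrays are given for some of the named members with the lowest D, and intensities are compared only within a probe set. AT1G32190, a member of the alpha/beta-hydrolase superfamily, had intensities of 114 and 86.1 in mock and 149 and 92.6 with campestanol, array A first. It stood at 28.1 and 37.3 after brassinolide and at 35.8 and 20.01 after castasterone. The treated and control arrays did not overlap. AT5G02540, a short-chain dehydrogenase of the Rossmann-fold superfamily, read 90.8 and 55.7 in mock, 20.1 and 16.4 after brassinolide, and 25.1 and 20.3 after castasterone. AT5G22580, a stress-responsive A/B barrel domain protein, read 898 and 759 in mock, 498 and 258 after brassinolide, and 363 and 193 after castasterone. All of these treated arrays lay below all 4 control arrays. The choice of members on these same arrays favours such separation, so it is a description and no test.

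Not every member was as even. AT1G80130, a tetratricopeptide repeat protein, read 162 and 848 in mock and 80.1 and 515 with campestanol, against 74.7 and 114 after brassinolide and 53.9 and 146 after castasterone. Array B exceeded array A in all 13 groups, so its treated B arrays lie above the campestanol A array. Within each letter the treated arrays lay below both control arrays, a separation that the choice of members favours. AT3G23550, a MATE efflux family transporter, read 32.1 and 75.3 in mock and 11.9 and 7.63 after brassinolide. AT4G01870, a tolB-related protein, spread from 129 to 433 over the 4 control arrays and stood at 86.4 and 46.5 after brassinolide. AT4G36700, a cupin of the seed storage protein family, had mock arrays at 37.1 and 136, so that brassinolide, at 60.0 and 37.6, overlaps them; its D was -0.81 for brassinolide and -1.59 for castasterone.

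The largest differences belong to probe sets without a named gene. 259839_at read 803 and 480 in mock and 979 and 558 with campestanol, but 70.0 and 51.3 after brassinolide and 66.8 and 38.7 after castasterone. 259681_at went from 1675 and 1223 in mock to 219 and 260 after brassinolide. The lowest mean D over brassinolide and castasterone was -3.50 among the 68 unnamed members and -1.71 among the 39 named ones, so an account limited to named genes misses the lower end. At the threshold itself, 256981_at had D of -0.80 for brassinolide and -0.93 for castasterone, AT1G44760 -0.81 and -0.97, and 254016_at -0.81 and -1.03. Just outside lay 252896_at with -0.80 and -1.09, 247793_at with -0.80 and -0.88, and 253203_at with -0.79 and -0.80, which miss the threshold before rounding. AT1G44760 belongs to the adenine nucleotide alpha hydrolases-like superfamily.

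The members were next tested on arrays that the D values of the choice had not used. For this, limma was fitted to the 18 arrays of the 9 compounds given at 1 µM. These arrays did count in the mean intensity that members had to reach. The effect of that filter on the differences below was not tested. A call is a Benjamini-Hochberg adjusted p under 0.05 over all 17606 probe sets tested, and all 107 members were among them. Every difference below is in log2(intensity + 5), is given with its SE where one is printed, and compares compounds at the same dose and time. The test for any difference among the 9 compounds called 0 members, against 0.0625% of all probe sets (11). At an unadjusted p under 0.05 it held 50 of the 107 members and 4.43% of all probe sets. The 0 depends on the model: with the replicate letter as a block in the fit, members were called. More members were then also called for C-23 against C-22 hydroxylated compounds and for both branches, and some for the C-6 ketone. Those counts are given at the end. Counts of called members with 1 array left out are given here and below without the calls over all probe sets. They do not show whether a change concerns the members or all calls together. The lowest adjusted p among the members was 0.0543 for 252265_at, and among the named ones 0.0805 for AT4G36700. The count stood at 1 without either array of 6-deoxotyphasterol or without array A of 6-deoxocastasterone, and at 3 without array B of 6-deoxocastasterone.

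The members were lower after the 7 compounds that carry the C-23 hydroxyl than after the 2 that stop at C-22. The median difference over the members was -0.48, against -0.03 over all probe sets tested. Below 0 were 105 of 107 members and 58.1% of all probe sets. limma called 15 members lower and 0 higher, while 0.79% of all probe sets were called (139), 0.131% lower (23) and 0.659% higher (116). At an unadjusted p under 0.05, 63 members were lower and 0 higher, against 3.82% of all probe sets lower and 4.12% higher. For scale, the mirrored rule, with D of at least 0.8, gave 360 probe sets, of which 92 were called higher in this comparison, with a median of 0.50. The count of members fell to 2 and 0 without array A and array B of 6-deoxocathasterone and to 1 and 4 without array A and array B of cathasterone. It fell to 7 without array B of 6-deoxoteasterone and to 8 without array B of 6-deoxotyphasterol. Within letter A the median of the members was -0.38 and within letter B -0.53, and 102 of 107 were below 0 in both letters, against 31.5% of all probe sets tested.

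Of the 39 named members, 3 passed the test in that comparison, and 38 had a difference below 0. AT5G02540 fell by 1.02 ± 0.21 (adjusted p = 0.0310). It read 99.6 and 69.3 after 6-deoxocathasterone and 63.2 and 42.9 after cathasterone, and the 14 arrays of the later compounds ran from 17.6 to 50.8. Later arrays at 50.8 and 43.3 lie above array B of cathasterone, so the groups overlap. AT1G21050, a gene with no role given here, fell by 0.64 ± 0.12 (adjusted p = 0.0258). Its 4 early arrays read 200, 218, 177 and 152, and each of the 14 later arrays lay at or below 147, with no overlap. AT5G12050, also without a role given here, fell by 0.64 ± 0.13 (adjusted p = 0.0303). It read 114 and 77.4 after 6-deoxocathasterone and 80.9 and 58.3 after cathasterone, and between 37.1 and 68.8 after the others, so array B of cathasterone lies within that range.

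**Figure D2:**
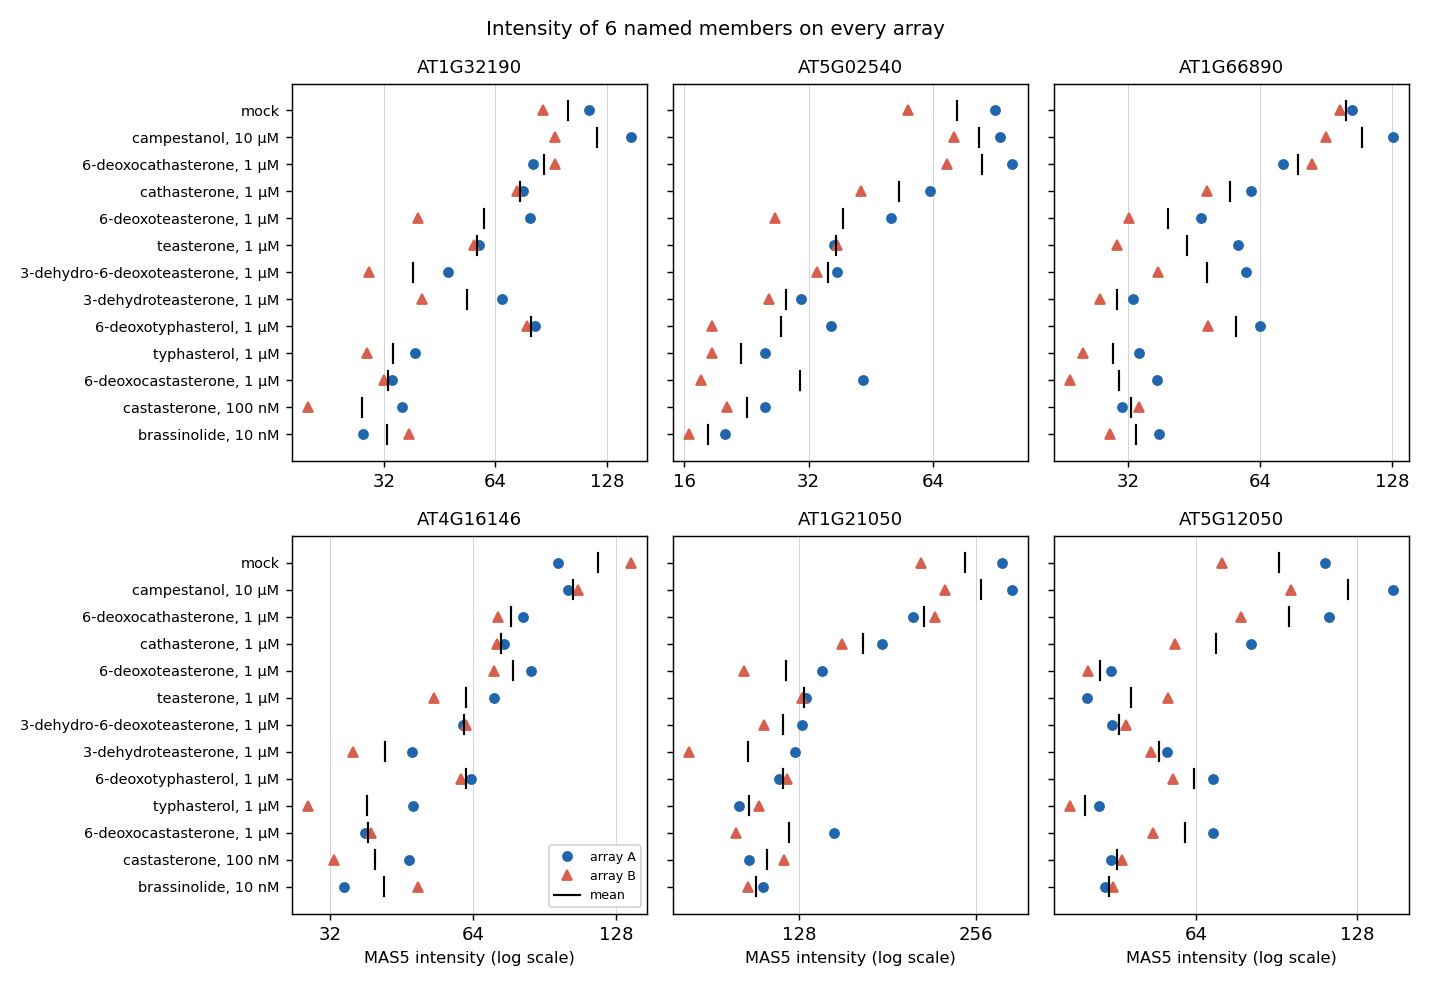
MAS5 intensity (log axis) of 6 named members on every array, array A as circles, array B as triangles and the group mean as a bar, in the order of synthesis from top to bottom. AT5G02540, AT1G21050 and AT5G12050 carry calls in the comparison of C-23 with C-22 hydroxylated compounds; AT1G32190 shows the high 6-deoxotyphasterol arrays at 82.0 and 77.8.

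The 12 other calls were unnamed probe sets. 246389_at had the lowest adjusted p (0.00535), with a difference of -0.75 ± 0.11. Its early arrays read 117, 127, 122 and 144, and its typhasterol arrays read 64.6 and 51.2. 267305_at followed at -0.98 ± 0.15 (adjusted p = 0.00670), from 61.6 and 119 after 6-deoxocathasterone to 24.3 and 22.9 after typhasterol. It had already reached 36.0 and 39.4 after teasterone. The largest difference among the called members was that of 245325_at, at -1.24 ± 0.27 (adjusted p = 0.0406), with 1252 and 756 after 6-deoxocathasterone and 219 and 186 after typhasterol. The remaining 9 calls ran from -0.59 for 259848_at to -1.15 for 252265_at.

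**Figure D3:**
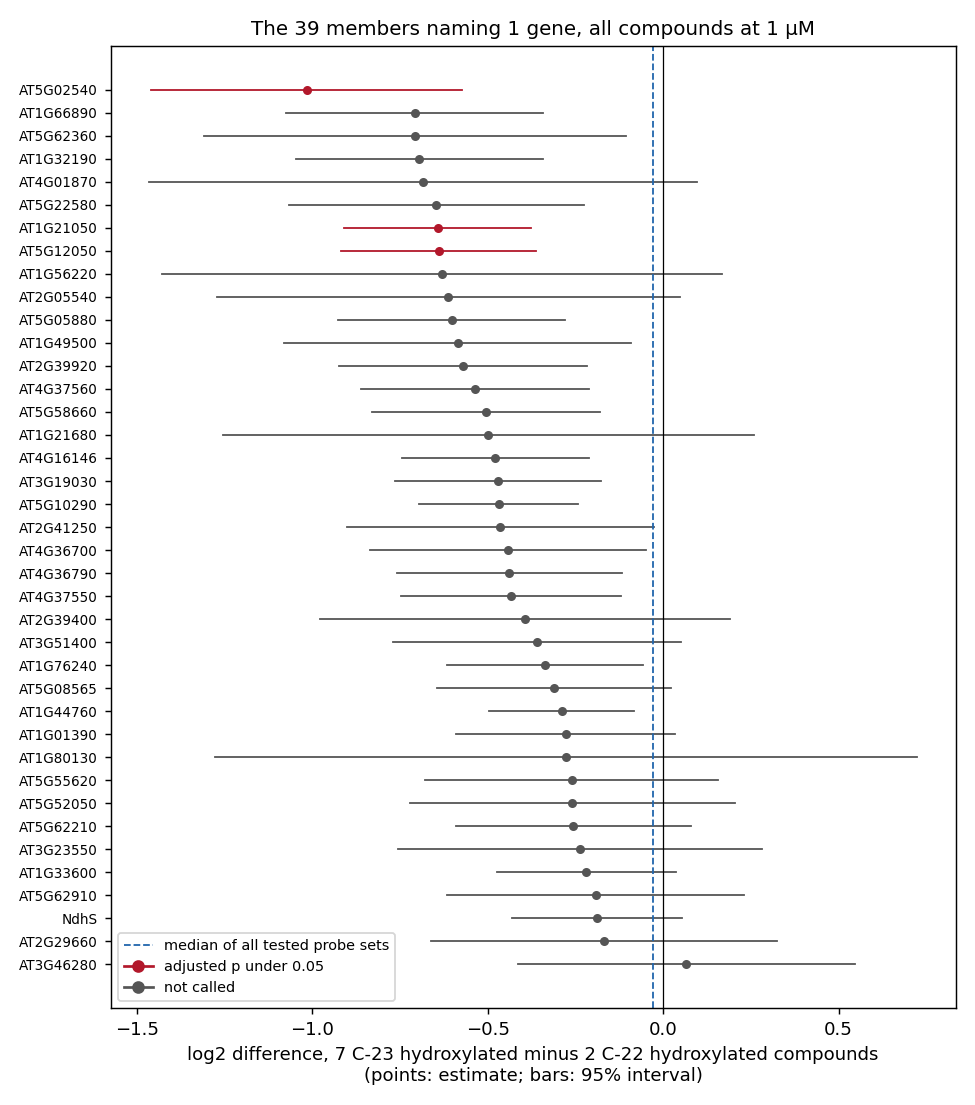
Difference in log2(intensity + 5) between the 7 C-23 hydroxylated and the 2 C-22 hydroxylated compounds for the 39 named members, with the estimate as a point, the 95% interval as a bar and the median of all tested probe sets as a dashed line at -0.03. The 3 called members are in red, and 38 of 39 points lie below 0.

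For C-23 against C-22 hydroxylated compounds, 105 of all 107 members were below 0, 15 were called and 63 had an unadjusted p under 0.05. Over all probe sets tested, 58.1% were below 0 and 3.82% were lower at that p. Counts by role are a description beside these shares and show no trait of a role. By role, the enzymes of the hydrolase and oxidoreductase kind made up 8 of the named members, all below 0 in this comparison (median -0.52). limma called 1 of them, AT5G02540, and 7 had an unadjusted p under 0.05. AT1G32190 came next at -0.69 ± 0.17 (adjusted p = 0.0751). AT2G39920, a phosphatase-like protein of the HAD superfamily, was at -0.57 ± 0.17, and AT5G58660, a 2-oxoglutarate and Fe(II)-dependent dioxygenase, at -0.50 ± 0.15. AT4G37550 and AT4G37560, both acetamidase/formamidase family proteins, are direct neighbours on chromosome 4 and were at -0.43 ± 0.15 and -0.54 ± 0.15. They are related in sequence, and whether their probe sets share signal was not tested.

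Transporters gave 3 members, and 0 were called, 1 having an unadjusted p under 0.05. AT4G36790, of the major facilitator superfamily, was at -0.44 ± 0.15, while the MATE transporters AT3G23550 and AT5G52050 had intervals that include 0. Both glycosyltransferases, which attach sugars from UDP-sugars to small molecules, were below 0: AT5G05880 at -0.60 ± 0.15 (adjusted p = 0.0981) and AT1G01390 at -0.28 ± 0.15. Among the 3 receptor and kinase-like members, AT5G10290, a leucine-rich repeat receptor-like kinase, was at -0.47 ± 0.11 (adjusted p = 0.0590). Its 4 early arrays read 72.8, 78.7, 73.1 and 78.2, and its typhasterol arrays read 41.6 and 41.5. The kinase-related AT3G46280 was the only named member above 0, at 0.07, with a 95% interval from -0.41 to 0.55.

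Secreted and storage-type proteins gave 4 members and 0 calls, with AT5G62360, of the invertase and pectin methylesterase inhibitor family, at -0.71 ± 0.28. The 4 regulators also gave 0 calls. AT4G16146, of the cAMP-regulated phosphoprotein 19-related family, was at -0.48 ± 0.13 (adjusted p = 0.117), and the C2H2 zinc finger gene AT2G29660 at -0.17 ± 0.23. AT2G29660 read 50.7 and 38.6 after typhasterol against 46.4 and 39.6 after 6-deoxocathasterone, so the arrays overlap. Its D was -1.47 for brassinolide, and its D for typhasterol was 50.3% of that for castasterone. In the stress and dormancy families, AT5G22580 was at -0.65 ± 0.20 and the dormancy/auxin-associated AT1G56220 at -0.63 ± 0.37. NdhS, a subunit of the chloroplast NADH dehydrogenase-like complex, was at -0.19 ± 0.11. Of the 8 members with no role given, 2 were called and 6 had an unadjusted p under 0.05, among them AT1G66890 at -0.71 ± 0.17 (adjusted p = 0.0817).

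Within each branch, the last compound at 1 µM was set against the first. In the 6-deoxo branch, 6-deoxocastasterone minus 6-deoxocathasterone had a median of -0.72 over the members and -0.01 over all probe sets tested. Below 0 were 103 of 107 members and 51.0% of all probe sets. RCA had -1.87 in this comparison (adjusted p = 0.971 in limma), against 0.77 in that of the 6-oxo branch and -0.39 for C-23 against C-22 hydroxylated compounds. None of these RCA differences was called, and the part of RCA in these results was not tested. limma called 5 members lower, against 0.432% of all probe sets called, 0.0738% lower (13) and 0.358% higher (63). At an unadjusted p under 0.05, 64 members were lower, against 2.49% of all probe sets lower and 4.85% higher. Both 6-deoxocastasterone arrays lay below both 6-deoxocathasterone arrays for 80 members and for 14.7% of all probe sets. The 5 calls were 252265_at (-2.34 ± 0.42), 246284_at (-1.48 ± 0.30), 259680_at (-1.27 ± 0.23), 267233_s_at (-1.18 ± 0.22) and 259848_at (-1.06 ± 0.20). 252265_at read 58.1 and 83.0 after 6-deoxocathasterone and 13.8 and 6.48 after 6-deoxocastasterone. The probe set 267233_s_at is of a kind that can hybridise with several transcripts. The count was 1 and 0 without array A and array B of 6-deoxocathasterone and 2 without array B of 6-deoxocastasterone. Leaving out an array of another compound, which changes only the shared spread, gave 2 without either array of cathasterone or of 6-deoxotyphasterol, 3 without either of typhasterol and 8 without either of 6-deoxoteasterone.

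In the 6-oxo branch, typhasterol minus cathasterone had a median of -0.65 over the members, against -0.03 over all probe sets. Below 0 were 106 of 107 members and 54.9% of all probe sets. limma called 2 lower, 246389_at (-1.14 ± 0.19, adjusted p = 0.0367) and 252863_at (-1.27 ± 0.22, adjusted p = 0.0380), against 0.108% of all probe sets called, 0.0398% lower (7) and 0.0682% higher (12). At an unadjusted p under 0.05, 50 members were lower, against 3.21% of all probe sets lower and 3.32% higher. Both typhasterol arrays lay below both cathasterone arrays for 80 members, against 20% of all probe sets. 252863_at read 279 and 312 after cathasterone and 108 and 133 after typhasterol. AT5G10290 was at -0.79 ± 0.19, AT4G16146 at -0.89 ± 0.22 and AT2G39920 at -1.14 ± 0.29, none of them called. The count was 0 without either array of cathasterone, typhasterol or 3-dehydro-6-deoxoteasterone, and 1 without either array of 3-dehydroteasterone or 6-deoxotyphasterol.

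The single steps were smaller, and limma called 0 members in each of them and 0% of all probe sets. With the replicate letter as a block, the C-23 and C-2 steps had calls, as given at the end. For hydroxylation at C-23, averaged over the branches, the median of the members was -0.31, and 30 members were lower and 0 higher at an unadjusted p under 0.05, against 2.19% of all probe sets lower and 1.51% higher. The median was -0.19 within letter A and -0.42 within letter B. AT5G12050 had the lowest p among the members in this step, at -0.78 ± 0.16, from 114 and 77.4 after 6-deoxocathasterone to 44.2 and 40.2 after 6-deoxoteasterone. It read 39.9 and 56.6 after teasterone, below both cathasterone arrays. AT5G02540 was at -0.75 ± 0.26 and AT1G21050 at -0.55 ± 0.16. Both 6-deoxoteasterone arrays lay below both 6-deoxocathasterone arrays for 55 members, against 20.3% of all probe sets, and both teasterone arrays below both cathasterone arrays for 37, against 13.6%.

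Oxidation at C-3 had a median of -0.19, with 13 members lower and 0 higher at an unadjusted p under 0.05, against 1.21% of all probe sets lower and 1.46% higher. Here AT4G36700 was at -0.77 ± 0.23, with 46.0 and 51.6 after teasterone and 17.9 and 18.9 after 3-dehydroteasterone. The members' median for the subsequent reduction at C-3 differed in sign between the branches. It was -0.18 with the C-6 ketone, where 3 members were lower and 0 higher at an unadjusted p under 0.05, against 0.585% of all probe sets lower and 1% higher. Both typhasterol arrays lay below both 3-dehydroteasterone arrays for 28 members, against 10.5% of all probe sets. The median was -0.30 within letter A and -0.14 within letter B. Without the ketone the median was 0.18, with 1 lower and 6 higher, against 2.2% of all probe sets lower and 1.28% higher, and it was 0.05 within letter A and 0.26 within letter B. The difference between the branches had a median of -0.37 over the members and 0.05 over all probe sets, with 11 members lower and 2 higher, against 1.06% lower and 2.24% higher. limma called 0 members and 0% of all probe sets for that difference. The reduction without the ketone, this difference, the C-2 step and the C-6 average all use the same 2 arrays of 6-deoxotyphasterol. RCA, the green-tissue gene, had a log2 value of -1.68 for the same difference and 1.53 for the reduction without the ketone. limma called neither, and both use the 3-dehydro-6-deoxoteasterone arrays, on which RCA lies far apart. The part of RCA in these results was not tested.

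AT1G32190 and AT4G36700 had opposite values in that difference. AT1G32190 read 47.8 and 29.1 after 3-dehydro-6-deoxoteasterone, 82.0 and 77.8 after 6-deoxotyphasterol, 66.8 and 40.5 after 3-dehydroteasterone, and 38.8 and 28.9 after typhasterol. Its reduction step was 1.00 ± 0.29 without the ketone and -0.57 ± 0.29 with it, a difference of -1.57 (95% interval -2.45 to -0.69). AT4G36700 read 54.4 and 93.2, then 33.5 and 26.0 without the ketone, and 17.9 and 18.9, then 33.7 and 27.97 with it. Its difference was 1.75 (95% interval 0.77 to 2.73). Neither passed the adjustment over all probe sets.

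Hydroxylation at C-2, from 6-deoxotyphasterol to 6-deoxocastasterone, had a median of -0.38 over the members and 0.03 over all probe sets. Within letter A the median of the members was -0.21, with 73 below 0, and within letter B it was -0.58, with 94 below 0. In both letters 67 members were below 0, against 21% of all probe sets. RCA had -1.74 in this step, which limma did not call, and the part of RCA in the result was not tested. At an unadjusted p under 0.05, 29 members were lower and 0 higher, against 1.46% of all probe sets lower and 3.22% higher. Both 6-deoxocastasterone arrays lay below both 6-deoxotyphasterol arrays for 52 members, against 11.6%. AT1G32190 went from 82.0 and 77.8 to 33.7 and 32.1, a difference of -1.16 ± 0.29 with an adjusted p of 0.499 in limma. AT5G10290 went from 65.0 and 76.6 to 48.9 and 40.0 (-0.62 ± 0.19). Not all members leaned this way: AT2G05540, a glycine-rich protein, was at 0.77 ± 0.55 and AT2G39400, an alpha/beta-hydrolase, at 0.76 ± 0.48, with intervals that include 0. Without array B of 6-deoxocastasterone, 1 member was called.

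For the C-6 ketone there are 4 pairs of compounds that are otherwise alike. The average over the pairs, with the ketone minus without it, had a median of -0.22 over the members and -0.01 over all probe sets. Below 0 were 97 of 107 members and 52.3% of all probe sets. limma called 0 members. At an unadjusted p under 0.05, 32 members were lower and 0 higher, against 1.32% of all probe sets lower and 1.97% higher. Among the members 252863_at had the lowest p, at -0.57 ± 0.11, and AT4G16146 followed at -0.39 ± 0.11 (95% interval -0.63 to -0.16). Of the pairs, typhasterol and 6-deoxotyphasterol lay furthest apart in median D, while teasterone and 6-deoxoteasterone were alike at -0.67. Both typhasterol arrays were below both 6-deoxotyphasterol arrays for 69 members, against 15.7% of all probe sets. For 252863_at the arrays of these typhasterols read 108 and 133 with the ketone and 277 and 314 without it. The median of the members was -0.22 within letter A and -0.22 within letter B.

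**Figure D4:**
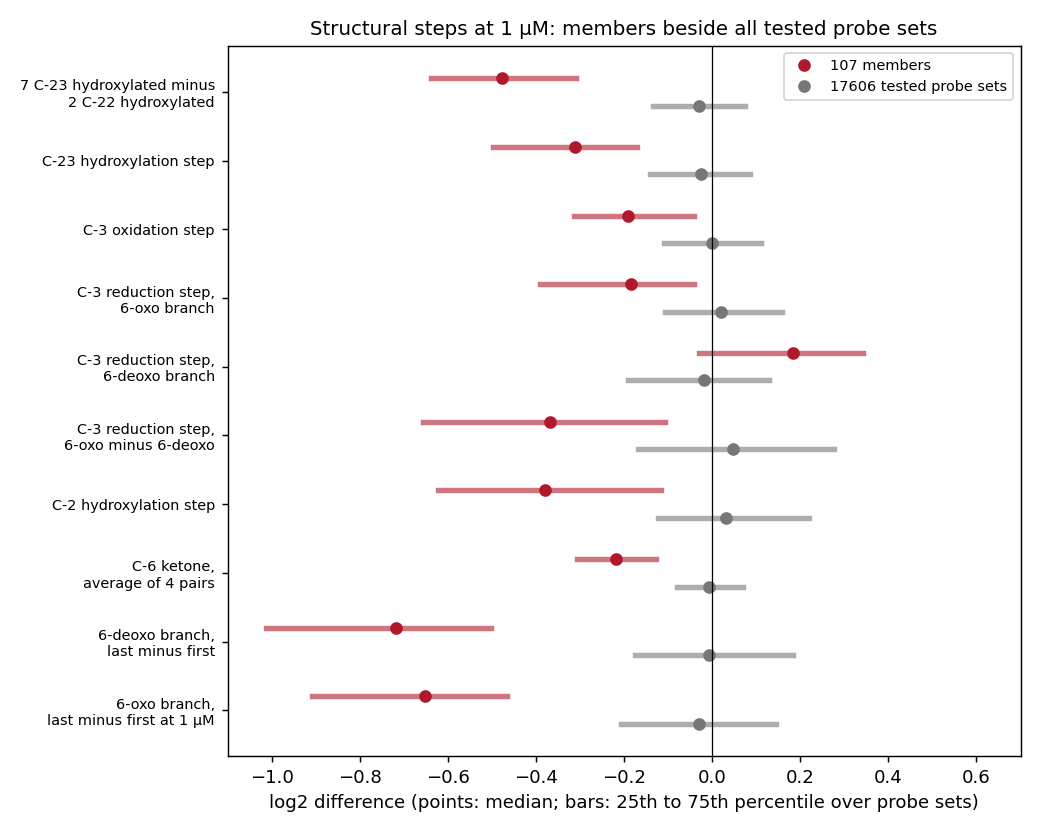
Median (point) and range from the 25th to the 75th percentile (bar) of the log2 differences for each structural comparison at 1 µM, over the 107 members in red and over all 17606 tested probe sets in grey. The median of the members lies below 0 in all 10 comparisons drawn except the C-3 reduction of the 6-deoxo branch, where it is 0.18.

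The members resembled each other across the 9 compounds to different degrees. The Pearson correlation of a member's 9 group means with the mean of the other members had a median of 0.83 over the members and 0.07 over the other 17499 tested probe sets. It was at least 0.8 for 60 members (56.1%) and for 2.07% of the others. This is a description over 9 group means from the same 18 arrays, and members and others share those arrays. The named members most like the rest were AT5G10290 (0.95), AT5G62360 (0.95) and AT5G22580 (0.95). The least alike were AT3G46280 (-0.20), AT5G55620 (-0.02) and AT2G29660 (0.00), so these did not share the ranking of the 9 compounds. After cathasterone and typhasterol, D was -0.53 and -0.57 for AT3G46280, -0.85 and -1.08 for AT5G55620, and -0.83 and -0.73 for AT2G29660. These D values use the mock and campestanol arrays that also chose the members, and high readings there lower D for every compound. They therefore do not show a response of these genes to the intermediates, which was not tested. AT3G46280 read between 42.0 and 102 on the 18 arrays, and its campestanol arrays, 238 and 49.0, lie far apart.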

How the data were processed

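RNA of 26 whole-seedling samples was measured on ATH1 arrays, 1 sample per array. The deposited intensities are linear values per probe set, which the authors obtained from MAS5 according to the submitters' processing notes. No source used here gives its version, parameters or detection calls. No further normalization was applied, since all trimmed means were alike, and 64 control probe sets were left out. Intensities were taken as log2(value + 5), so differences of dim probe sets are understated. Precision is limited by 2 arrays per group.

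The members and the gene lists were chosen with earlier results of these data known. Gene names come from the platform annotation, which can be old, matched to RefSeq (assembly TAIR10.1) for all 39 named members. No coordinates are printed, because no source used here gives the build of the array annotation. Named members were taken first from the 12 with the lowest mean D over brassinolide and castasterone. Others had the lowest p among the 9 compounds or served as examples of a role group. Array intensities are printed for only some of them, and AT5G62210, among those with the lowest p, is not described. AT3G46280, AT5G55620 and the unnamed probe sets were chosen after their values were seen.

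The 18 arrays at 1 µM were fitted with limma 3.58.1 (R 4.3.3), 1 coefficient per group, an intensity trend in eBayes and 9 residual degrees of freedom, over the 17606 probe sets with a mean of at least 10. p-values were adjusted with the Benjamini-Hochberg method over all of them, and 11 comparisons were tested. The code was tested on simulated data. Alternatives were the pseudocount, normalization, filter, replicate letter as a block, all 26 arrays in the fit, no trend, and leaving out each array.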

Additional observations from a re-analysis of the deposited data

How the results depend on the processing

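The 459 alternative values for 17 named genes were all for the comparison of C-23 with C-22 hydroxylated compounds. Of these, 416 kept direction and side of the threshold, mostly for genes not called to begin with. Another 24 kept direction but were no longer called, all for the called genes: AT5G02540 (10), AT5G12050 (9) and AT1G21050 (5), with 27 alternatives each. A further 16 became called, and 3 reversed. The reversed values were those of AT1G80130, at 0.15 without array B of 6-deoxocathasterone and 0.07 without array B of cathasterone, and of AT2G29660, at 0.025 without array B of cathasterone. Over all single arrays left out, these genes ran from -0.70 to 0.15 and from -0.36 to 0.025. Arrays of different groups share only a letter: over 78 pairs of groups the differences between letters correlated at -0.02 to 0.48 (median 0.32). With the replicate letter as a block, members called were 24 for any difference, 44 for C-23 against C-22 hydroxylated compounds (including the 15), 1 for the C-23 step, 3 for the C-2 step, 2 for the C-6 ketone, 32 for the 6-deoxo branch and 27 for the 6-oxo branch. The calls over all probe sets then rose from 11 to 209, from 139 to 393, from 0 to 4, 19 and 6, from 76 to 339 and from 19 to 185. Without the trend, 2, 1 and 0 members were called for C-23 against C-22, the 6-deoxo branch and the 6-oxo branch (73, 36 and 10 over all). For any difference, 1 member was called with pseudocount 16, with quantile normalization and with median centring, and 3 with all 26 arrays (16, 13, 24 and 32 over all). For the 6-deoxo branch, median centring gave 2 and all 26 arrays 13 (58 and 140 over all). Leaving out 1 array gave 0 to 3 members for any difference, 0 to 20 for C-23 against C-22, 0 to 1 for the C-2 step, 0 to 8 for the 6-deoxo branch and 0 to 3 for the 6-oxo branch. The rule itself gave 95 to 127 members without 1 array, of which 84 to 101 were among the 107, and 105 with mock alone as control, of which 86 were. It gave 73 with pseudocount 16, 125 with pseudocount 1, 132 with no filter and 126 with quantile normalization. The causes were not tested.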
